A study of Mus musculus with 4 samples.

Results

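The subject here is open chromatin around 8 genes for Krüppel-like factors (KLFs) with known roles in fat cell formation: Klf2, Klf3, Klf4, Klf5, Klf6, Klf7, Klf9 and Klf15. Every ATAC-seq peak whose summit lay within 50 kb of an annotated transcription start site (TSS) of 1 of these genes on the mouse mm9 build was taken. The rule gave 207 of the 239709 peaks: 61 and 39 in WT (D0 and D8) and 60 and 47 in HY. Peaks of different libraries that overlapped by at least 50% of the shorter peak were joined into a site, which gave 79 sites at the 8 genes among 102906 in the whole data. No site was counted at 2 of the genes.

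ATAC-seq uses the Tn5 transposase to insert adapters into accessible DNA, so a peak marks open chromatin. The material was im-scWAT cells, the stromal vascular fraction of mouse subcutaneous white adipose tissue made immortal with SV40 large T antigen. WT cells carried the genotype Jmjd1a +/+, and HY cells the genotype Jmjd1a HY/HY, a histidine-to-tyrosine change. The study describes the changed JMJD1A as lacking its demethylase activity toward histone H3 lysine 9. Its enzyme assay used a histidine-to-phenylalanine change at the matching residue of the human protein. Both genotypes were taken before differentiation (D0, day 0) and after differentiation towards beige adipocytes (D8, day 8). Between these days all cells were held for 2 days in indomethacin, dexamethasone, 3-isobutyl-1-methylxanthine, rosiglitazone, insulin and T3, and then for 6 days in insulin, T3 and rosiglitazone. There was 1 library per group, so no test between groups was possible, each difference compares those libraries, and intervals cover counting error only. The WT and HY cells are separate cultures, and genotype and culture cannot be told apart.

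KLFs are zinc-finger transcription factors that bind GC-rich DNA such as the CACCC box, and many of them act on the cascade in which C/EBP factors switch on Pparg, the master regulator of the fat cell. KLF4 acts at the start of that cascade, on Cebpb. KLF5 and KLF9 act on the Pparg promoter, and KLF6 represses the preadipocyte gene Dlk1. KLF15 is induced late, by glucocorticoids among other signals, and serves glucose and amino acid metabolism in the mature cell. KLF2, KLF3 and KLF7 hold differentiation back, KLF2 at Pparg and KLF3 at Cebpa.

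Of the 13 sites at a promoter of any annotated gene, 11 were open in all libraries (84.6%, against 64.7% of all promoter sites), and 0 opened or closed in both genotypes (2.26% and 9.91% of all promoter sites). Of the 66 distal sites, 17 were open in all libraries (25.8%, against 16% of all distal sites), 4 opened (6.06%, against 6.48%) and 13 closed in both genotypes (19.7%, against 26.2%). Klf15 had 3 sites that were open on day 8 in both genotypes and on day 0 in neither, and no site of the reverse kind, although 1 closed site was counted with only peaks of −log10 q of at least 5 and also within 100 kb. Having 3 or more such opened sites occurred at 5.46% of protein-coding genes with any site. Klf4 had 5 sites that were open on day 0 in both genotypes and on day 8 in neither, and no site of the opening kind, although 1 opened site was counted where peaks had to overlap by 50% of both or have summits within 200 bp. Having 5 or more such closed sites occurred at 8.59% of those genes. With lists cut to equal length, Klf15 had 5 opened and Klf4 had 2 closed sites. The 5.46% and 8.59% are for the full lists, and no share of all genes is given at equal length. The strongest promoter site of 7 genes was open in all 4 libraries. The sequences of all 4 sites that opened in both genotypes are given first, because they mark where new accessibility appeared on the differentiated days. All windows are the 201 bases centred on the summit, read from the + strand of mm9 in 5′ to 3′ direction. Capitals mark a match to 1 of the motifs searched (described with the motif results), other than the degenerate C/EBP pattern, which is too frequent to mark. The windows are chr19:23264373-23264573 for Klf9 +48.8 kb, chr6:90400811-90401011 for Klf15 −11.7 kb, chr6:90442055-90442255 for Klf15 +26.9 kb and chr6:90459100-90459300 for Klf15 +43.9 kb.
Klf9 +48.8 kb: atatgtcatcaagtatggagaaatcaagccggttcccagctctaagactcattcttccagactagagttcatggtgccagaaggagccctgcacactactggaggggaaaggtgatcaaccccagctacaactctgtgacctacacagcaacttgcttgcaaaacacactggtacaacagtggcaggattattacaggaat
Klf15 −11.7 kb: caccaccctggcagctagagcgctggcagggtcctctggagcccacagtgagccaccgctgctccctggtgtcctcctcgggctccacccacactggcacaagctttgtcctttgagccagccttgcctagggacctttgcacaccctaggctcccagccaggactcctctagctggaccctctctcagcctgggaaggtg
Klf15 +26.9 kb: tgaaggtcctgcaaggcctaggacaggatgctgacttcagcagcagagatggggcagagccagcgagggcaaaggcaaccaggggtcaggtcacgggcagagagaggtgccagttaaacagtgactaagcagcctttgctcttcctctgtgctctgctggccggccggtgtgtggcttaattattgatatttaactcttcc
Klf15 +43.9 kb: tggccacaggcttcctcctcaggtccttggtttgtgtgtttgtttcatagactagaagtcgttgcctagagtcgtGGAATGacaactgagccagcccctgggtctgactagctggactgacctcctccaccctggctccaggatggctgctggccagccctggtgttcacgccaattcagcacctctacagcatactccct
The next 4 windows are among the strongest sites that closed in both genotypes: chr4:55555789-55555989 for Klf4 −10.5 kb, chr4:55591810-55592010 for Klf4 −46.6 kb, chr13:5870717-5870917 for Klf6 +10.1 kb and chr1:64134937-64135137 for Klf7 +32.9 kb.
Klf4 −10.5 kb: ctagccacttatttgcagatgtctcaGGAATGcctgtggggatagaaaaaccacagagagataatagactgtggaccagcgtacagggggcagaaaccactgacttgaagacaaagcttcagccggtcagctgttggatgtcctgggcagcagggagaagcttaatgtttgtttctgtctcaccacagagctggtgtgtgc
Klf4 −46.6 kb: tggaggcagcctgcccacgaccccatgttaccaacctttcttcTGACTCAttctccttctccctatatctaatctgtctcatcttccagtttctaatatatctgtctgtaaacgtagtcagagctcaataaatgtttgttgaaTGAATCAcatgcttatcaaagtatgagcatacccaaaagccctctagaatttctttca
Klf6 +10.1 kb: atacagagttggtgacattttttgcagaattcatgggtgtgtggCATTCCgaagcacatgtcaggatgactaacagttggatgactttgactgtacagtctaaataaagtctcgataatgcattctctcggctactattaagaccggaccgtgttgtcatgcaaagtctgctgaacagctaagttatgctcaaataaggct
Klf7 +32.9 kb: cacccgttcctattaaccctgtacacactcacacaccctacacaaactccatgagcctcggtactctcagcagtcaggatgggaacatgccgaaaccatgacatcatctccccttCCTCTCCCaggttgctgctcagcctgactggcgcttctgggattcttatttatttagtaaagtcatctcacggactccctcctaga
The last pair are sites that were open throughout and at least 2-fold stronger on day 8 in both genotypes, chosen after their values were seen: chr6:90451586-90451786 for Klf15 +36.4 kb and chr6:90456975-90457175 for Klf15 +41.8 kb.
Klf15 +36.4 kb: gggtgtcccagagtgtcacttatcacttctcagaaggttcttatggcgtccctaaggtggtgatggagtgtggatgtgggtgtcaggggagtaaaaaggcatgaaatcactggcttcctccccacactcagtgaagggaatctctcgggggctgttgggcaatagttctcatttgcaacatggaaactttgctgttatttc
Klf15 +41.8 kb: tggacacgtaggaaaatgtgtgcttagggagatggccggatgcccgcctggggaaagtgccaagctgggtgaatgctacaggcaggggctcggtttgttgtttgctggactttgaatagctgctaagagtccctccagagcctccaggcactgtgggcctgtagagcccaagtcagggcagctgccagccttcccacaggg

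Values are summit pileups, the number of overlapping sequence tags at the highest point of a peak, solved from the fold and −log10 p that the authors' peak caller gave for each peak. The background rate, which is proportional to depth, was 0.659 and 0.531 in WT (D0 and D8) and 0.708 and 0.494 in HY. Ratios between libraries are ratios of pileup over background rate, with exact 95% intervals. The D8 libraries were shallower, and their lists held 41228 and 48964 peaks against 71523 and 77994 at D0. Of 7 adipocyte marker genes, 2 had a promoter peak at D0 and 6 at D8 in either genotype. Of 4 beige markers 1 had a promoter peak at D0 and 2 at D8, with no promoter peak at Ucp1 in any library. Of 7 preadipocyte and fibroblast markers, 6 had a promoter peak in WT D0, 3 in HY D0 and 2 in each D8 library. Among 9 markers of other cell types, only Pecam1 had a promoter peak, in WT D0; Adgre1 was not matched in the annotation.

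Of the 79 sites, 28 (35.4%) were open in all 4 libraries, against 23.7% of all sites. Sites opened by day 8 in both genotypes numbered 4 (5.06%), against 5.82% of all sites and 5.93% of those within 50 kb of a protein-coding gene. Sites closed in both numbered 13 (16.5%), against 23.6% and 21.8%. These differences from the background were not tested. Within WT, 5 of 64 sites opened (7.81%, against 12.4% of all sites) and 29 closed (45.3%, against 52.9%). Within HY, 8 of 68 sites opened (11.8%, against 14.1%) and 24 closed (35.3%, against 49.4%). With each list cut to its 41228 strongest peaks, 13 sites opened and 13 closed in WT and 14 opened and 12 closed in HY, so the excess of closed over opened sites depends on the list lengths. Klf15 then had 5 sites opened in both genotypes and Klf4 2 closed in both. No share over all sites or all genes is given at this list length, so these counts are not set against a background. By annotation 42 sites were intergenic, 32 intronic, 3 in a UTR, 1 in a coding exon and 1 in an exon of a non-coding transcript. A member was the gene with the nearest TSS for 45 of the 79.

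The number of open sites differed by gene. Klf15 had 13 and 12 open sites in WT (D0 and D8), where 4 opened and 5 closed, and 10 and 14 in HY, where 4 opened and 0 closed. Klf4 had 11, 4, 10 and 4 in the same order, and Klf3 10, 3, 8 and 4. Klf2 had 8, 4, 10 and 7, Klf6 8, 6, 10 and 6, Klf7 3, 1, 4 and 2, and Klf9 5, 4, 7 and 6. Klf5 had 1 in every library. Klf15 was the only gene of the 8 with more open sites on day 8 than on day 0 in a genotype, in HY but not in WT.

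**Figure D1:**
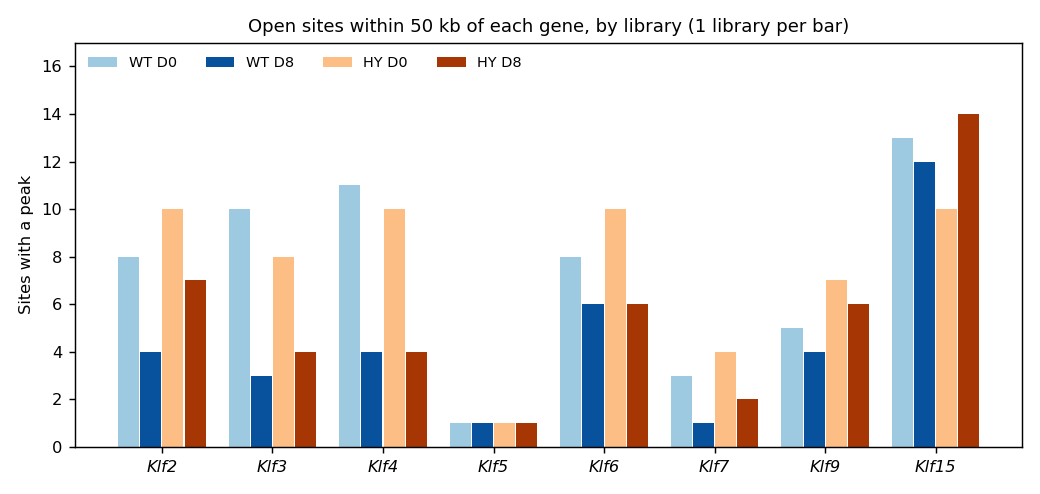
Number of sites with a peak (vertical axis) within 50 kb of each gene, 1 bar per library. Klf4 falls from 11 and 10 sites on day 0 to 4 on day 8, while Klf15 has 13 and 12 in WT and 10 and 14 in HY.

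**Figure D2:**
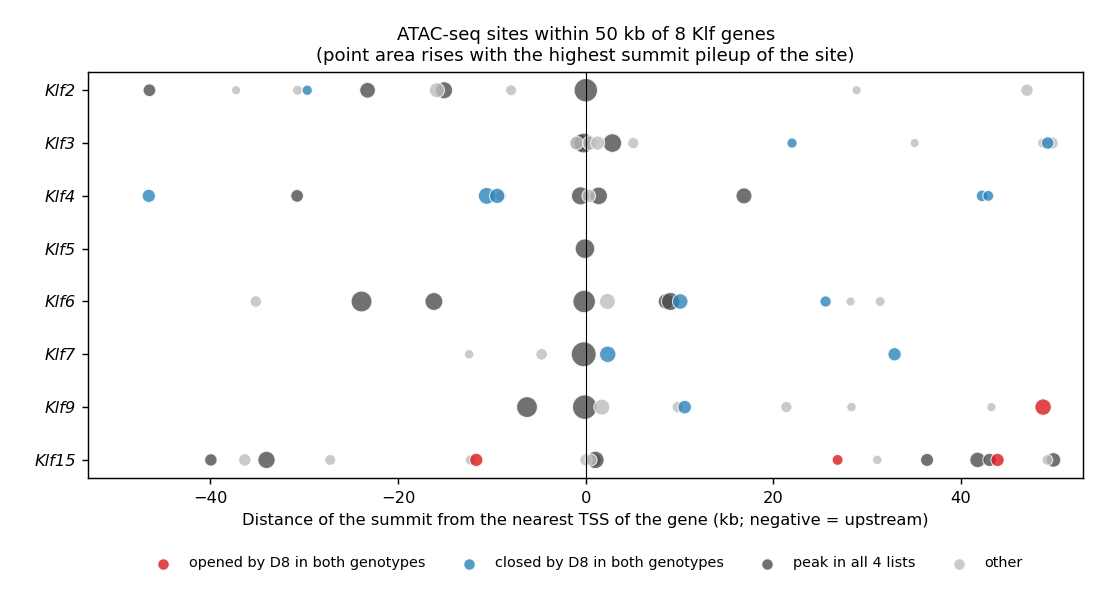
Position of the 79 sites relative to the nearest TSS of their gene, in kb along the direction of transcription. Colour gives the state over the 4 lists and point area rises with the highest summit pileup. The 4 opened sites lie at Klf9 and Klf15, all more than 11 kb from a TSS, and 5 of the 13 closed sites lie at Klf4.

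The promoters were examined next, as the sites most directly tied to the genes. The promoter site of each gene is its strongest summit from 1000 bp upstream to 100 bp downstream of a TSS. The Klf7 promoter had the highest pileups: 80 and 71 tags in WT (D0 and D8) and 81 and 68 in HY. At Klf2 the pileups were 71, 63, 70 and 65 in the same order. At Klf9 they were 66, 53, 78 and 57. All of these promoters were strongly open before differentiation and remained so after it. The Klf6 promoter gave 64, 54, 65 and 64 tags, the Klf3 promoter 38, 45, 47 and 49, and the Klf5 promoter 35, 32, 48 and 40. The Klf4 promoter gave 37, 24, 40 and 28 tags. The intervals of the D8 over D0 ratio included 1 at each of these 7 promoters in both genotypes. The highest of these ratios was at Klf3, 1.47 (0.933 to 2.33) in WT and 1.49 (0.98 to 2.28) in HY. A further Klf3 promoter site open in all libraries, at −0.60 kb, went the other way, with 33, 15, 36 and 21 tags and ratios of 0.564 (0.285 to 1.07) and 0.835 (0.463 to 1.47). A weaker one at −0.99 kb had no WT D8 peak. Among the strongest promoter sites, the lowest ratio in WT was at Klf4, 0.805 (0.461 to 1.38), against 1.00 (0.596 to 1.67) in HY.

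The Klf15 promoter stood apart from the other 7. Its site at the first TSS (chr6:90412232-90412666) had 13 tags in WT D0 and 10 in HY D0, no peak in WT D8 and 16 tags in HY D8. A pileup of 8 would have been called in WT D8 at the local background of WT D0 brought to that depth. The limit is higher if the local background rose by day 8. It did rise at this promoter in HY, from 2.196 to 3.483 tags. In WT it rose from 2.21 to 3.29 tags at the site +1.04 kb from the TSS. Whether the promoter lost accessibility in WT was not tested. The D8 over D0 ratio in HY was 2.29 (0.978 to 5.65), while the fold over local background was 3.44 on day 0 and 3.79 on day 8. About 1 kb inside the gene, in an intron, however, a site at chr6:90413413-90413905 was open in every library. It had 29 and 37 tags in WT (D0 and D8) and 32 and 35 in HY, more than the promoter site in each.

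**Figure D3:**
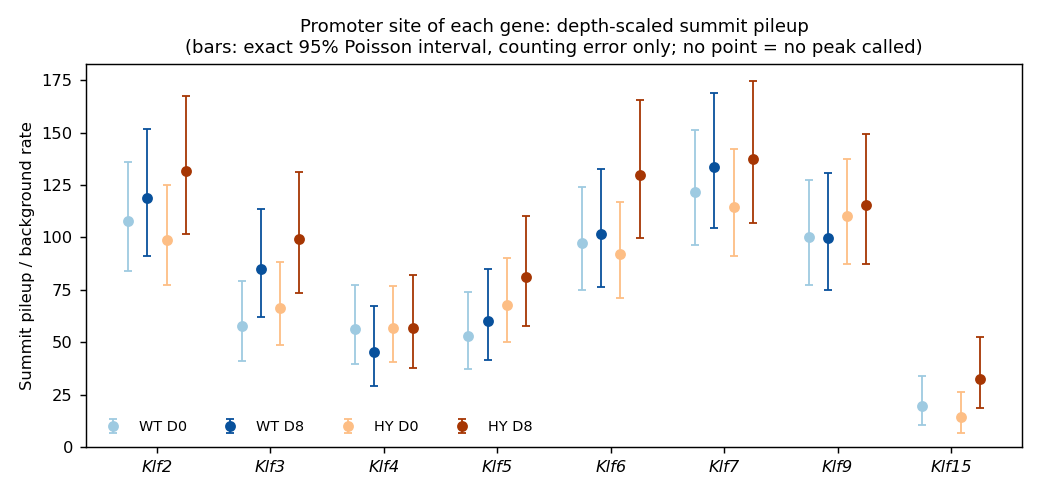
Summit pileup over the background rate of the library (vertical axis, from 0) at the promoter site of each gene, with exact 95% Poisson intervals. The intervals of the 4 libraries overlap at each of Klf2 to Klf9; Klf15 has the lowest values and no point for WT D8.

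Among the factors of the early phase, Klf4 (chr4:55540013-55545347, − strand) had the most closed sites, and no opened one. The site 10.5 kb upstream of the TSS had 34 tags in WT D0 and 31 in HY D0 and no peak on day 8. The lowest pileup that would have been called on day 8 was 7 in both genotypes, against the 27.4 and 21.6 tags that the D0 pileups give at the D8 depths. That margin, 3.09-fold in the weaker genotype, was the largest of the 13 closed sites. A second site at −9.43 kb had 14 and 27 tags on day 0. The pair lies in intergenic DNA with Klf4 as the nearest gene. Farther upstream, the site at −30.8 kb, at the promoter of Gm12511, kept a peak in all libraries, with 17, 11, 14 and 7 tags.

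At −46.6 kb, in an intron of the predicted gene Gm12511, a site had 19 tags in WT D0 and 13 in HY D0 and closed in both. Its window, printed above, holds TGACTCA and TGAATCA, both matches to the AP-1 pattern searched, TGANTCA, which takes any base in the middle. Downstream, sites at +42.2 kb (13 and 12 tags) and +42.9 kb (10 and 11 tags) closed as well. Other sites of Klf4 that stayed open had fewer tags on day 8. The site over its coding exon at +1.38 kb had 33 and 20 tags in WT (D0 and D8) and 38 and 18 in HY. The intergenic site at +16.9 kb had 30, 16, 29 and 17 in the same order. No interval of these ratios excluded 1. The median log2 ratio of D8 over D0 at the 4 shared Klf4 sites was −0.36 in WT and −0.37 in HY, against −0.16 and −0.18 over all shared sites.

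Klf5 (chr14:99697910-99712624, + strand), which acts downstream of C/EBPβ and C/EBPδ, had a single site. It was the promoter, and no other site lay within 100 kb in any library. The WT ratio of D8 over D0 there was 1.13 (0.68 to 1.89) and the HY ratio 1.19 (0.764 to 1.85).

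Klf6 (chr13:5860735-5869639, + strand) combined stable and weakened elements. The strongest distal site of the 8 genes at D0, 23.9 kb upstream of Klf6, had 54 and 14 tags in WT (D0 and D8) and 55 and 25 in HY. The WT ratio of D8 over D0 was 0.322 (0.165 to 0.587) and the HY ratio 0.651 (0.389 to 1.06). It was the only one of 30 shared sites at least 2-fold lower in WT (14.7% of all shared sites), and 0 of 36 were so in HY (17.2% of all shared sites). On day 8 the HY pileup was 1.92 times that of WT, with an interval that included 1 (0.96 to 3.99). The site at −16.2 kb had 32, 27, 39 and 31 tags and ratios of 1.05 and 1.14. Downstream, the site at +10.1 kb had 28 and 26 tags on day 0 and no called peak on day 8, where 10 tags in WT and 9 in HY would have been called. The site at +25.6 kb had 12 and 9 tags on day 0 and closed too.

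Of the factors of the later phase, Klf9 (chr19:23215716-23241401, + strand) held the strongest opened site. Its intergenic site at +48.8 kb had no peak on day 0, 27 tags in WT D8 and 32 in HY D8. The −log10 q was 24.4 and 34.5. Had the site been as open on day 0, the greater depth would have given 33.5 and 45.8 tags, where 7 and 6 were enough for a call. The nearest annotated TSS is that of the microRNA gene Mir1192, not that of Klf9, and the site lies just inside the 50 kb limit.

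The other Klf9 sites moved in various ways. The site 6.25 kb upstream is the promoter of the non-coding gene 2410080I02Rik. It had 40 and 51 tags in WT (D0 and D8) and 34 and 55 in HY, with a D8 over D0 ratio of 1.58 (1.03 to 2.46) for WT and 2.32 (1.48 to 3.66) for HY. The local background moved with it, from 4.39 to 7.50 tags in WT and from 3.55 to 8.19 in HY. The fold over that background was 7.60 and 6.12 in WT, and 7.70 and 6.09 in HY. The summit was thus higher on day 8 while its enrichment over its surroundings was lower. In the Klf9 intron, the site at +10.6 kb had 13 and 20 tags on day 0 and closed in both genotypes.

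Klf15 (chr6:90412570-90425232, + strand), with 18 sites, was the gene with the most sites and with the most opened sites. At −11.7 kb, in intergenic DNA next to Klf15, a site absent on day 0 had 19 tags in WT D8 and 12 in HY D8. The other 3 WT sites of this kind lay downstream, inside introns of Aldh1l1, a gene of folate metabolism whose TSS is nearer to them. The first of these, at +26.9 kb, opened with 10 and 11 tags. The second, at +43.9 kb, opened with 17 and 19 tags. The third, at +49.2 kb, had 10 tags in WT D8 and no peak elsewhere. In HY, a weak site +0.59 kb from the TSS had 14 tags on day 8 and no peak in the other libraries. At each of the 4 sites opened in both genotypes, at Klf9 and Klf15, the D8 pileup at D0 depth was at least 2.34 times the lowest pileup callable on day 0.

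Between the opened sites in Aldh1l1 lay 4 further sites, of which those at +36.4 kb and +41.8 kb had higher pileups on day 8 in both genotypes and that at +31.1 kb had 7 tags in WT D0 and no peak elsewhere. The site at +36.4 kb had 7 and 17 tags in WT (D0 and D8) and 7 and 18 in HY. Its WT ratio of D8 over D0 was 3.01 (1.19 to 8.60) and the HY ratio 3.68 (1.47 to 10.4). The site at +41.8 kb had 10, 22, 18 and 28 tags, with ratios of 2.73 (1.24 to 6.46) and 2.23 (1.19 to 4.28). Together with the site upstream of Klf9, these were the 3 sites of the 28 open in all libraries whose interval lay above 1 in both genotypes, and at 0 sites did it lie below 1 in both. At +43.0 kb the tags were 15, 14, 12 and 19, and the ratio reached 1.16 (0.518 to 2.57) for WT and 2.27 (1.04 to 5.12) for HY. In WT the interval lay above 1 at 3 of 30 shared sites (4.77% of all shared sites) and below 1 at 1 (14.3%). In HY it lay above 1 at 4 of 36 (5.13%) and below 1 at 0 (15.3%). These sites were picked out for their ratios and are a description.

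Inside Klf15, 2 intronic sites had ratios above 1 in both genotypes, with intervals that all included 1. The intronic site +1.04 kb from the first TSS gave 1.58 (0.948 to 2.67) in WT and 1.57 (0.942 to 2.61) in HY. A site +0.94 kb from the second TSS gave 2.07 (0.963 to 4.64) and 1.67 (0.848 to 3.33). The local background under the first of them was 2.21 and 3.29 tags in WT (D0 and D8) and 2.24 and 3.45 in HY. The fold over local background there was 9.36 and 8.85 in WT and 10.2 and 8.10 in HY, so it was lower on day 8, as at the site upstream of Klf9. It was also lower on day 8 at +0.94 kb in HY (5.67 and 4.75), at +43.0 kb in WT (7.22 and 5.24) and HY (6.53 and 6.28), and at +41.8 kb in HY (9.25 and 9.07). It was higher on day 8 in WT at +0.94 kb (3.97 and 4.74) and +41.8 kb (5.07 and 8.06), and at +36.4 kb in both genotypes, at 4.82 and 9.30 in WT and 4.68 and 10.1 in HY. The site at −34.0 kb, at the promoter of Ccdc37, had 36, 33, 32 and 29 tags, with ratios of 1.14 (0.688 to 1.88) and 1.30 (0.757 to 2.21). The site at −39.9 kb had 12, 8, 16 and 6, with ratios of 0.827 (0.293 to 2.2) and 0.537 (0.172 to 1.44). The ratio was above 1 at 7 of the 8 shared Klf15 sites in WT (38.7% of all shared sites) and at 9 of 10 in HY (39.5%). They had a median log2 ratio of 0.45 in WT and 0.77 in HY, the highest of the 8 genes in each genotype.

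Across the 8 genes, 3 of 30 shared sites were at least 2-fold higher on day 8 in WT (4.75% of all shared sites) and 5 of 36 in HY (5.24% of all shared sites). The 3 in WT were all at Klf15, and in HY 4 were at Klf15 and 1 at Klf9. Without scaling, 2 were higher and 3 lower in WT, and 1 higher and 6 lower in HY. The members had a median log2 ratio of 0.15 in WT and 0.22 in HY, against −0.16 and −0.18 for all shared sites. Leaving out the depth scaling lowers every log2 ratio by the same amount (a shift of −0.31 in WT and −0.52 in HY), so the gap between the members and all sites does not depend on it, while the sign of a median can. Of the 28 sites open in all libraries, 17 were higher on day 8 in both genotypes (60.7%, against 29.9% of all such sites), 7 lower in both (25%, against 47.2%) and 4 opposite (14.3%, against 22.9%). These directions use the scaled pileups, and the differences from the background were not tested.

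**Figure D4:**
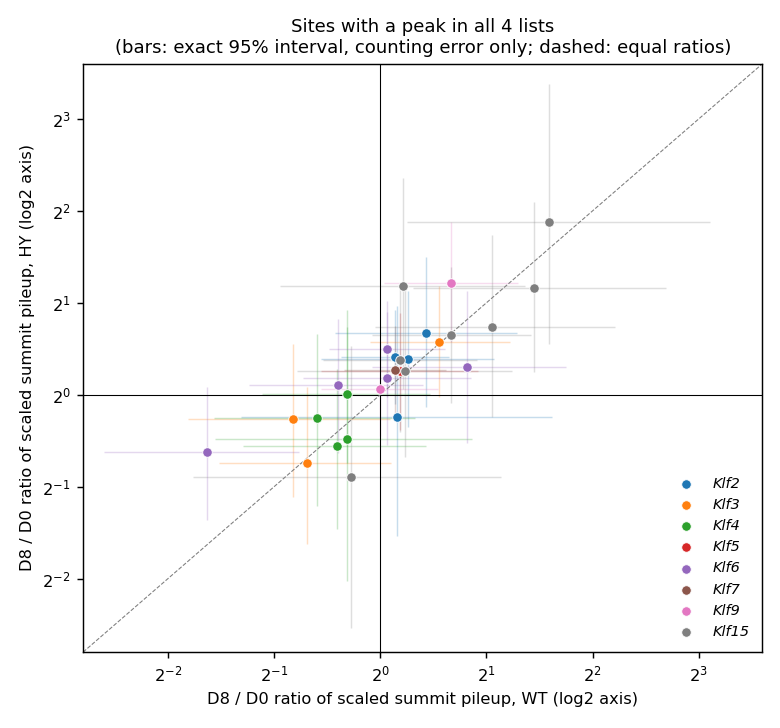
D8 over D0 ratio of depth-scaled summit pileup in WT (horizontal) and HY (vertical), both on log2 axes, for the 28 sites open in all libraries, with exact 95% intervals. The Klf15 sites with WT ratios of 3.01 and 2.73 lie at the upper right, and the Klf6 site at −23.9 kb, with 0.322 in WT, lies farthest to the left.

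At the 3 inhibitors of differentiation, 5 of 28 sites closed in both genotypes (17.9%, against 23.6% of all sites), with 8 to 32 tags on day 0. At Klf2 (chr8:74842932-74845555, + strand), 1 site closed in both genotypes, at −29.7 kb, with 9 and 8 tags. The strong distal sites at −23.2 kb (24, 26, 26 and 29 tags) and −15.1 kb (28, 27, 35 and 32 tags) were open throughout. At Klf3 (chr5:65194628-65221368, + strand), the sites at +49.2 kb (16 and 13 tags) and +22.0 kb (8 and 9 tags) closed. The intronic site at +2.85 kb was weaker on day 8, with 42 and 21 tags in WT (D0 and D8) and 43 and 18 in HY. Its ratios were 0.621 (0.349 to 1.07) and 0.599 (0.325 to 1.06), so both intervals reached 1. At Klf7 (chr1:64076021-64168856, − strand), 2 intronic sites closed. The one at +32.9 kb had 15 tags in WT D0 and 19 in HY D0, with 5 and 4 needed on day 8. The one at +2.35 kb had 32 and 26 tags, but 16 were needed there because of the high local background.

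10 of the 13 closed sites had, at the D8 depth, less than 2 times the lowest callable pileup in at least 1 genotype, whereas all 4 opened sites exceeded it by more than that in both. Depth enters this contrast, because D0 pileups are scaled down to the D8 depth and D8 pileups up to the D0 depth. With 10 and 11 tags each, the closed site Klf4 +42.9 kb had a smaller margin of 1.54 and the opened site Klf15 +26.9 kb one of 2.48. No share over all closed or opened sites of the data is given for these margins. The lowest margin among the closed sites was 1.13, at Klf7 +2.35 kb. At no closed site did the D0 pileup, brought to the D8 depth, lie below the lowest callable value.

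Sites just inside and just outside the distance limit looked as follows. Just inside lay Klf15 +49.9 kb (19, 18, 24 and 20 tags), Klf3 +49.7 kb (16 tags in WT D0 only) and Klf9 +48.8 kb. Just outside lay a site 50.1 kb upstream of Klf3 (7 tags in HY D8 only), one 51.2 kb downstream of Klf4 (7 tags in HY D0 only) and one 54.8 kb downstream of Klf3, open throughout with 68, 11, 59 and 18 tags.

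The genotypes were compared on the same day. On day 0, 11 of 70 sites were open in HY and not in WT (22.4% of all sites) and 10 in WT and not in HY (13.1% of all sites). On day 8, 12 of 47 were open in HY and not in WT (26.7% of all sites) and 3 in WT and not in HY (10.1% of all sites). The share of HY-only sites on day 8 (25.5%) was thus close to that of all sites, while that of WT-only sites was 6.38%. The HY list of day 8 was longer than the WT list (48964 against 41228 peaks). With only peaks of −log10 q of at least 5, 3 sites were open in HY and not in WT on day 8 and 2 the reverse. With lists cut to equal length, these counts were 8 and 4. No share over all sites is given at these settings. At the 49 sites shared on day 0 the median log2 ratio of HY over WT was 0.00, and at the 32 shared on day 8 it was 0.23, against 0.08 and 0.15 over all shared sites. At 0 of 49 and 0 of 32 shared sites did the interval of this ratio exclude 1, which it did at 2.46% and 1.04% of all shared sites. None reached 2-fold in either direction, where 2.24% and 1.69% of all shared sites were at least 2-fold higher in HY and 1.41% and 0.491% lower. The intervals were wide: at the Klf9 site at −6.25 kb the ratio was 0.791 (0.486 to 1.28) on day 0 and 1.16 (0.777 to 1.73) on day 8.

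There were 2 sites that were open on both days in HY and on neither in WT, Klf2 −7.95 kb with 11 and 7 tags and Klf9 +21.4 kb with 12 and 7 (2.53% of the members and 0.847% of all sites), and 0 were so in WT alone (0.307% of all sites). In all, 6 sites were open in all libraries but WT D8, the shortest list. They lay at Klf2 (−15.9 kb and +47.0 kb), Klf3 (−0.99 kb), Klf9 (+1.73 kb) and Klf15 (−27.2 kb and the promoter), and this state held 7.59% of the members and 6.54% of all sites. The one with the highest pileup on day 0, Klf9 +1.73 kb, had 30 tags in WT D0, 28 in HY D0 and 17 in HY D8, with 14 needed for a call in WT D8. A further 2, Klf6 +2.33 kb (28, 20 and 30 tags) and Klf9 +9.82 kb (9, 9 and 12 tags), lacked only the HY D8 peak (2.53% of the members and 1.85% of all sites).

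In all, 24 sites were open in a single library, with 10 and 1 in WT (D0 and D8) and 9 and 4 in HY. Those of WT D0 made up 12.7% of the members (9.86% of all sites), those of WT D8 1.27% (2.50%), those of HY D0 11.4% (17.3%) and those of HY D8 5.06% (5.35%). Their pileups ran from 6 to 24 with a median of 9, and 18 of them had a −log10 q below 5. They lay near the calling limit for the most part. The strongest by −log10 q were Klf6 −35.2 kb in HY D0 (13 tags), Klf3 +0.43 kb in HY D0 (24 tags), Klf3 +49.7 kb in WT D0 (16 tags), Klf3 +1.27 kb in WT D0 (22 tags) and Klf15 −36.3 kb in WT D0 (16 tags). On day 8 they were Klf7 −4.70 kb in HY (13 tags) and Klf15 +49.2 kb in WT (10 tags). Klf4 −9.04 kb in WT D0 (10 tags) and Klf4 −9.02 kb in HY D0 (9 tags) overlap each other, but by less than 50% of the shorter peak. With an overlap of at least 1 bp they join, and Klf4 has 6 sites closed in both genotypes. On day 0, 10 sites are then open in HY and not in WT, and 9 the reverse.

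Each window of 100 bp on either side of a summit was searched for motifs, on both strands. The KLF/SP box CCNCNCCC, the element of this protein family itself, was present at 25 of 79 sites (31.6%), against 26.4% of all sites. It was found at 15 of the 28 sites open in all libraries (53.6%, against 43.6% of all such sites), at 3 of the 13 closed sites (21.3% of all closed sites) and at 0 of the 4 opened ones (17.5% of all opened sites). The median GC content of the sites open in all libraries was 60.4%, against 50.7% over all member sites, and its part in these shares was not tested. The AP-1 pattern TGANTCA was present at 6 of 13 closed sites (46.2%, against 32.1% of all closed sites) and at 0 of 4 opened ones (6.99% of all opened sites). The closed sites with it were at Klf2, Klf3, Klf6, Klf7 and at 2 sites of Klf4. The degenerate C/EBP pattern TTNCNNAA was present at 9 of 13 closed sites (69.2%, against 34.4%) and at 1 of 4 opened sites, that of Klf9, against 57.4% of all opened sites.

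The TEAD element GGAATG, or CATTCC on the other strand, was present at 4 of 13 closed sites (30.8%, against 21.9%) and at 1 of the 4 opened sites, Klf15 +43.9 kb (12.1% of all opened sites). The palindromic glucocorticoid receptor element, the PPARG:RXR direct repeat and a looser form of it, the NFI palindrome and the CREB element TGACGTCA were found at 0 of the 79 sites within 100 bp. Within 150 bp, however, the glucocorticoid receptor element was present at 2 of the 79 sites (2.53%, against 0.634% of all sites), 1 of them an opened site. Within 100 bp the 5 elements occurred at 0.452%, 0.0273%, 0.372%, 0.039% and 0.685% of all sites. Of the remaining patterns, the CACCC box CCACNCCC, which is contained in the KLF/SP pattern, was present at 8 sites (8.94% of all sites), a shortened NFI pattern at 2 (1.63%), and TTGCGCAA (the C/EBP palindrome), the EBF palindrome and TGACGCAA (a CREB variant) at 1 each (0.12%, 1.35% and 0.275%). Several shares depended on the window. Within 50 bp, the C/EBP pattern was present at 3 of 13 closed sites (23.1%, against 14.4%) and at 0 of the opened ones (29.9% of all opened sites). TEAD was present within 50 bp at 1 of 13 closed sites (7.69%, against 12.9%). The KLF/SP box was then present at 8 of the 28 sites open in all libraries (28.6%, against 28.3%). Within 150 bp, the KLF/SP box was present at 1 of the 4 opened sites (25% of all opened sites), as was the CACCC box (8.97%). The C/EBP pattern was present within 150 bp at 9 of 13 closed sites (69.2%, against 49.3%) and at 1 of 4 opened ones (68.4% of all opened sites). The letters say nothing of whether a factor was bound.

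The genes around these KLFs were set beside them. The other 9 KLF genes (Klf1, Klf8, Klf10, Klf11, Klf12, Klf13, Klf14, Klf16 and Klf17) had 72 sites, of which 7 (9.72%) opened and 9 (12.5%) closed in both genotypes. The opened ones were at Klf10 (3), Klf11 (2) and Klf13 (2). Among 6 genes that act with the KLFs in adipogenesis (Egr2, Cebpb, Cebpd, Cebpa, Pparg and Srebf1), 11 of 85 sites (12.9%) opened and 13 (15.3%) closed in both genotypes. Of these 6 genes 5 had an opened site, the exception being Egr2, against 2 of the 8 KLF genes, where at least 1 opened site was found at 31.9% of protein-coding genes with any site. A closed site was present at 6 of the 8 KLF genes, all but Klf5 and Klf15, against 75.1% of protein-coding genes.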

How the data were processed

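The authors deposited 1 narrowPeak list per library. Adapter trimming, alignment, removal of duplicates and peak calling are described in the study, and the submitters' processing notes name Bowtie2, SAMtools, Picard, deepTools and mm9. Versions, the calling threshold and any shift of read ends for Tn5 are not given in the sources used here. The signal column deposited by the authors is a ratio, the fold enrichment of the summit over local background. The deposited −log10 p and −log10 q values describe the same summit. The deposited score, a rescaled q, was not used, and the deposited summit offset placed each peak.

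The pileup and background were solved from the fold and −log10 p for whole-number pileups. The solution matched the deposited −log10 p to 0.002 for 100% of peaks, against 0.866% to 1.39% after shuffling the p column. The lowest background of a list gave its depth. The lowest callable pileup in a list without a peak used the lowest −log10 p of that list and the local background of the other day, brought to its depth.

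Annotation and sequence were GENCODE vM1 on NCBIM37 (mm9), and 0 peaks lay beyond a chromosome end. Ratios have exact Clopper-Pearson intervals. The members, lists and motifs were chosen with earlier results of these data known. Named sites were, per gene, the promoter, up to 3 opened, up to 3 closed and 2 constantly open sites by −log10 q, plus the strongest sites of 1 genotype or 1 library; other sites were picked after their values were seen. Steps were run in Python 3.11.15 with SciPy 1.17.1 and tested on simulated data. Alternatives covered the overlap, summit distance, −log10 q, list length, gene distance, transcripts, scaling, fold and motif window.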

Additional observations from a re-analysis of the deposited data

Results flagged for a closer look

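With 1 library per group, opposite directions in WT and HY were seen and not tested, and each of the 4 cases below has intervals of the day ratio that include 1 in both genotypes. At the Klf4 promoter (-0.55 kb) the D8 over D0 ratio was 0.805 in WT and 1.00 in HY. At the Klf9 promoter (-0.10 kb) it was 0.997 in WT and 1.05 in HY. At Klf6 +9.04 kb it was 0.759 in WT and 1.07 in HY. At Klf2 -46.5 kb it was 1.12 in WT and 0.842 in HY. The difference between genotypes was not tested at any of them.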

How the results depend on the processing

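No paired test was run. The D0 and D8 libraries form 1 pair in each of the 2 genotypes. With 1 library per group, no leaving out of replicates was run. No site ratio with an interval on 1 side of 1 changed direction under an alternative, but without scaling the median log2 day ratio of the 8 genes changed sign, to −0.16 in WT and −0.30 in HY, by a shift that is the same for every site. The cause of the shifts below was not tested, other than the smaller or larger set that a distance, a fold or a list length selects by construction.

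With an overlap of 50% of both peaks, 10 sites opened in WT and 16 in HY, and 17 (day 0) and 8 (day 8) were open in WT and not in HY. With summits within 200 bp, 8 opened in WT and 5 were open in WT and not in HY on day 8. With peaks of −log10 q of at least 5, 5 opened in HY, 6 were open in WT and not in HY on day 0, 3 were open in HY and not in WT on day 8, and 0 (WT) and 3 (HY) shared sites were at least 2-fold higher. With lists cut to the 41228 strongest peaks, 8 sites closed in both genotypes, 13 (WT) and 14 (HY) opened, 13 (WT) and 12 (HY) closed, 7 were open in HY and not in WT and 5 the reverse on day 0, and Klf15 had 5 opened and Klf4 2 closed sites in both genotypes. Within 10 kb there were 31 sites, of which 0 opened and 2 closed in both genotypes, 0 (WT) and 2 (HY) opened, 9 and 6 closed, 3 and 4 were open in HY only and WT only on day 0, 6 were open in HY and not in WT on day 8, and Klf15 had 0 opened and Klf4 1 closed. Within 100 kb there were 127 sites, with 25 closed in both, 15 opened in HY, 47 (WT) and 48 (HY) closed, 21 and 17 open in HY only and WT only on day 0, and 6 open in WT and not in HY on day 8. Without scaling, 3 (WT) and 6 (HY) shared sites were at least 2-fold lower and 1 (HY) higher on day 8. At a fold of 1.5, 6 and 4 were higher and lower in WT, and 9 and 4 in HY. Of the other counts 77 stayed within 1.5 times the main count, and 241 site ratios stayed within their interval; the other two, without scaling, were the HY day ratios of the promoters of Klf2 (0.929 in place of 1.33) and Klf7 (0.840 in place of 1.20). Of the motif shares, 7 moved and 21 did not when the window was changed.

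No scaling shifted the median log2 day ratio of all sites by -0.31 in WT and -0.52 in HY, and scaling on sites open in all libraries by 0.16 and 0.07. Depth limits the single values: a peak at the background rate needed 5 tags, or 4 in HY D8.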
